A study of Mus musculus with 4 samples.

Results

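Human T cells that were dividing made up 3.19 to 3.75% of the human T cells in the blood of humanised mice, with shares whose intervals overlapped between naïve, sham-operated and spinal cord injured (SCI) animals. They were chosen from the unique molecular identifier (UMI) counts of 3 blood libraries. A barcode was taken as a human cell with over 50% of its UMIs on human genes and at least 500 human genes, and as a T cell with at least 1 UMI of CD3D, CD3E or CD3G and no UMI of the B cell gene MS4A1. A T cell was called cycling with a UMI of at least 3 of the 6 genes UBE2C, TOP2A, MKI67, ASPM, CCNB2 and DLGAP5. This gave 471 cycling T cells (170 naïve, 147 sham and 154 SCI) of 13282 T cells and 17715 human cells in blood. With the injured cord library the series held 17842 human cells.

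A T cell that enters division first licenses and copies its DNA in S phase, then condenses its chromosomes and separates them on a spindle in mitosis. The genes of these steps are switched on in turn, and transcripts such as those of MKI67, the Ki-67 antigen, are widely used to recognise dividing cells. In blood, most T cells rest between divisions, and dividing ones are seen after antigen or cytokine stimulation and while a transplanted immune system fills an empty host.

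The study asked how human white cells respond to spinal cord injury. The huNSG-SGM3 hosts carried Prkdcscid and IL2rgtm1Wjl on the NOD.Cg background, which leaves them without lymphocytes of their own, and the transgene Tg(CMV-IL3,CSF2,KITLG)1Eav/MloySzJ, in which a CMV promoter drives human IL-3, GM-CSF and stem cell factor. All were irradiated as pups, engrafted through the liver with human CD34+ cord blood cells and labelled 15 weeks of age. Naïve hosts were untreated males, sham hosts were males with a T9 laminectomy, and SCI hosts were pooled males and females with a T9 spinal cord injury, the operated groups sampled on day 7. Sorted huCD45+ cells were run on the 10x 3' platform. Each condition was 1 library, so library, host sex and condition cannot be told apart, no test between conditions was possible, and intervals below are 95% intervals that cover counting error only.

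The 3 blood libraries held 34161760 to 36487994 UMIs over 6962 to 8124 barcodes. Between 5 and 16 barcode sequences were shared by pairs of blood libraries, none of them by cycling T cells. Cycling T cells were deep: their median depth in naïve, sham and SCI blood was 9369, 15069 and 13144.5 human UMIs, against 3456, 4978.5 and 4495 in the 11894 T cells with none of the 6 genes, which serve as the comparison and are called other T cells below. Barcodes that the doublet caller Scrublet marked were kept, and made up 5.29, 2.04 and 1.30% of cycling T cells and 4.17, 3.73 and 4.29% of other T cells. The cycling cells carried a mean of 11.1, 18.9 and 14.9 UMIs of the T cell receptor gene TRAC, which the gate did not use. Their median of CD3 UMIs was 19, 32 and 27, against 8, 11 and 9 in the shallower other T cells. A CD3 UMI was required by the gate, so these values are a description only. With MS4A1 excluded by the gate, no cycling T cell held 5 or more of 10 B cell markers, and none held 3 or more thymocyte markers.

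Some cycling barcodes did hold other lineages. In naïve blood 25 of the 170 had at least 5 of 10 plasma cell markers, 3 had as many monocyte markers and 2 as many basophil or mast cell markers. In sham blood 6 of 147 were marked as monocyte and 5 as basophil, and in SCI blood none was. At least 5 of 14 NK receptor genes were held by 1 naïve and 2 sham members, and by none in SCI blood. The summed level of the plasma cell list was 39370 CPM (counts scaled to a total of 1000000 over the compared genes) in naïve cycling T cells against 170 and 147 in sham and SCI, that of the monocyte list was 1505, 3324 and 8.19, and that of the basophil list 88.8, 659 and 9.36. Several results are therefore also given for stricter T cells, without the plasma cell, monocyte and basophil barcodes and without barcodes under 3 CD3 UMIs. The shares of members with each marker, and of GZMK and IL7R T cells in cycle, are given without that step. That step was chosen after the markers were seen, removed 18.2% of the naïve, 7.48% of the sham and no SCI members, and brought the plasma cell list to 473, 164 and 147 CPM and the monocyte list to 29.6, 7.88 and 8.19.

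Ki-67 was the most widely detected of the 6 genes. MKI67 had a UMI in 97.6% of naïve, 97.3% of sham and 98.1% of SCI members, and the topoisomerase gene TOP2A in 90.6, 90.5 and 89.0%. The spindle gene ASPM followed with 81.2, 82.3 and 85.1% and the mitotic cyclin CCNB2 with 79.4, 80.3 and 74.0%. The ubiquitin-conjugating enzyme UBE2C, which serves the breakdown of mitotic proteins, was found in 60.6, 63.3 and 70.1%, and the spindle assembly gene DLGAP5 in 61.8, 66.7 and 61.0%. These values chose the members and are a description only. All 6 genes were present in 57, 61 and 56 members. Just inside the threshold lay 36, 33 and 28 cells with exactly 3 genes, of which 94.4, 93.9 and 96.4% had MKI67 and 77.8, 81.8 and 71.4% had TOP2A. Just outside lay 53, 42 and 58 cells with 2 genes, of which 84.9, 78.6 and 82.8% had MKI67 and 45.3, 59.5 and 60.3% had TOP2A, at median depths of 6933, 7930 and 7616.5 UMIs against 8513.5, 13812 and 11021.5.

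The share of T cells in cycle was close between the libraries. Naïve blood had 3.75% (170 of 4533; 3.22 to 4.34, exact binomial interval), sham blood 3.75% (147 of 3920; 3.18 to 4.39) and SCI blood 3.19% (154 of 4829; 2.71 to 3.72). The SCI value was the lowest, and its interval overlapped both others. In stricter T cells the order changed, with naïve at 3.30%, sham at 3.58% and SCI at 3.33%. When each cell was first thinned to 2000 human UMIs, which takes away the advantage of deep cells, 1.92, 1.60 and 1.51% still met the rule.

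**Figure D1:**
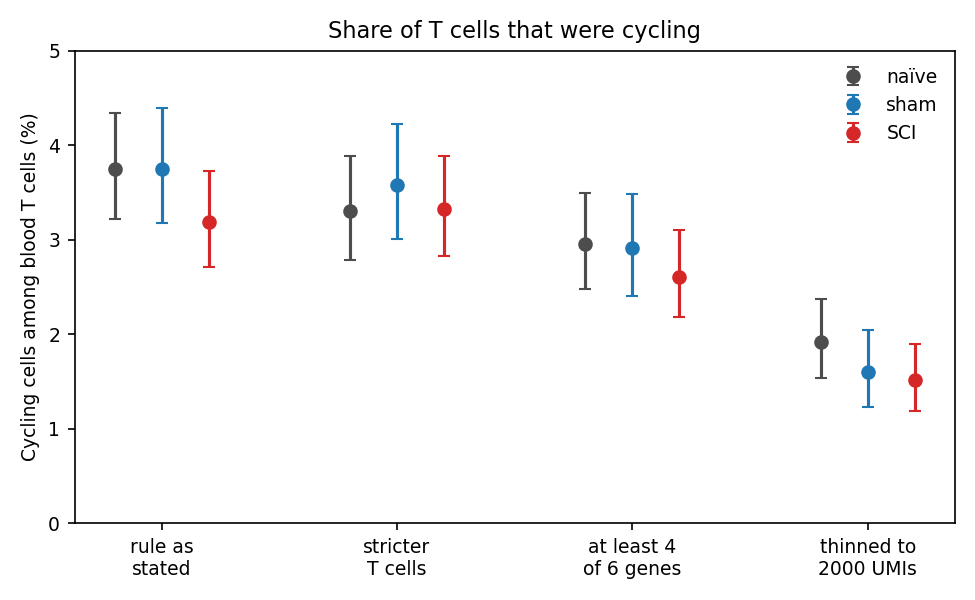
Percent of T cells that are cycling (vertical axis, from 0) in naïve, sham and SCI blood under the rule as stated, in stricter T cells, with at least 4 of the 6 genes and after thinning to 2000 UMIs; points are libraries and bars are 95% exact binomial intervals. The 3 libraries overlap under each setting, at 3.75, 3.75 and 3.19% as stated and 1.92, 1.60 and 1.51% after thinning.

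Most members held S phase transcripts as well as mitotic ones. With each cell thinned to 2000 UMIs, the median member had 6, 8 and 11 UMIs of 39 genes of origin licensing and DNA synthesis in naïve, sham and SCI blood, against 1 in other T cells of each library. Of 66 genes of the spindle, the kinetochore and the mitotic kinases it had 25.5, 27 and 30.5, against 3, 3 and 2. At least 5 UMIs of both sets were held by 64.9, 65.3 and 68.2% of members. In other T cells the same was true of 0.812, 0.408 and 0.509%. The 6 genes of the rule belong mainly to late cycle, so cells early in S phase can lie outside the members.

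The cycling T cells were of mixed kinds. Treg cells, marked by the transcription factor FOXP3, CD8 T cells, marked by CD8A or CD8B, and cytotoxic cells, taken as those with at least 2 of GZMB, GZMH, GNLY, PRF1, NKG7 and FGFBP2, were all among them in each condition. Since members hold about 3 times the UMIs of other T cells, subsets were read after thinning each cell to 2000 UMIs, which left 168, 147 and 154 members. B cells, taken as human cells with an MS4A1 UMI and no CD3 UMI, should lack these transcripts and gave the background. Their median depth was 3611.5, 5747 and 4874 UMIs. After thinning, FOXP3 was found in 0, 0.172 and 0% of them, a CD8 gene in 0.246, 0.344 and 0.329%, and 2 cytotoxic genes in 0.0820, 0 and 0.110%. Leaving out B cells with CD3 UMIs can make this background too low.

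FOXP3 was present in 10.1% of naïve members (17 of 168; 6.01 to 15.7), 6.80% of sham members (10 of 147; 3.31 to 12.2) and 2.60% of SCI members (4 of 154; 0.712 to 6.52). Other T cells of the same libraries had it in 6.18, 7.39 and 2.85%. Each interval of members took in the value of the other T cells of its library, in naïve blood only at the lower end. The average over all possible draws of 2000 UMIs was 7.43, 7.24 and 2.46% in members against 6.05, 7.48 and 2.93%. At full depth FOXP3 was found in 17.6, 28.6 and 11.7% of members against 9.14, 12.8 and 5.20% of other T cells. Thus the SCI library had the lowest FOXP3 share in both classes of cell under each way of counting.

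CD8 transcripts were found in a smaller share of cycling than of other T cells of SCI blood. Naïve members had a share of 13.7% (23 of 168; 8.88 to 19.8), sham members of 9.52% (14 of 147; 5.31 to 15.5) and SCI members of 12.3% (19 of 154; 7.59 to 18.6). In other T cells it was 18.2% (17.0 to 19.5), 17.8% (16.5 to 19.1) and 29.2% (27.9 to 30.6). The intervals of members and other T cells were apart in sham and SCI blood and overlapped in naïve blood. At full depth the shares were 17.6, 23.1 and 20.8% against 21.6, 24.4 and 37.1%, close together in naïve and sham blood and apart in SCI blood. Other T cells of SCI blood had more CD8 than those of the other two libraries, and the members did not.

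Cells with 2 cytotoxic genes made up 7.74% (13 of 168; 4.18 to 12.9), 7.48% (11 of 147; 3.79 to 13.0) and 8.44% (13 of 154; 4.57 to 14.0) of members. In other T cells the shares were 6.84, 3.46 (2.88 to 4.13) and 6.41%. The intervals overlapped in each library. The average over draws was 7.87, 7.20 and 9.14% against 6.85, 3.60 and 6.62%, and full depth gave 16.5, 17.7 and 18.2% against 9.34, 6.06 and 9.96%.

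The helper co-receptor CD4, whose transcript is sparse in this assay, was found after thinning in 14.9, 15.6 and 18.8% (13.0 to 25.9) of members and 15.9, 17.2 and 13.7% (12.7 to 14.7) of other T cells. At full depth it was found in 50, 63.9 and 59.7% of members and 25.4, 34.7 and 26.7% of other T cells, so the order seen after thinning was not kept in naïve and sham blood. Neither FOXP3, a CD8 gene, CD4 nor 2 cytotoxic genes defined one lineage cleanly: at full depth 7, 8 and 11 members held both CD4 and CD8, and 23, 16 and 17 of the members with a CD8 gene were also cytotoxic. FOXP3 met CD8 in 3, 5 and 4 members.

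**Figure D2:**
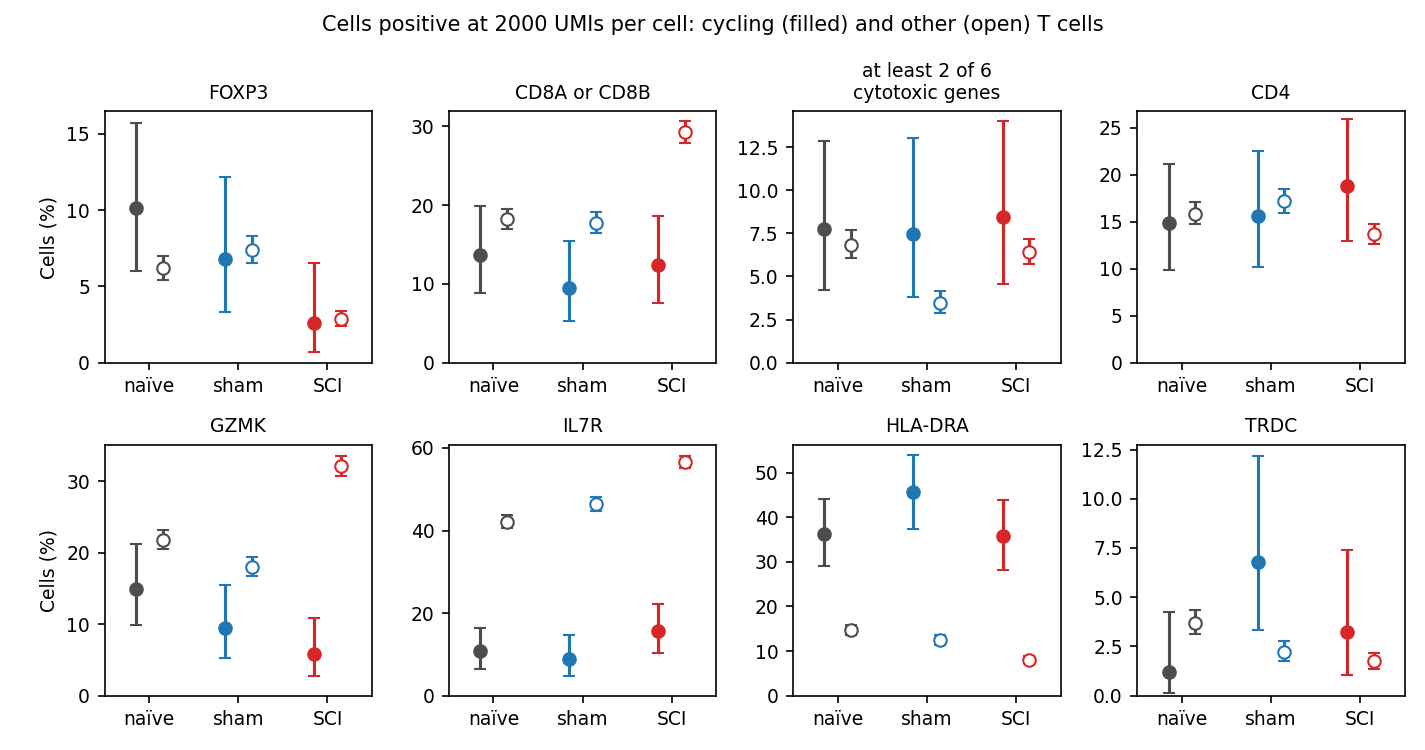
Percent of cells with a UMI of each marker (vertical axes, from 0) after thinning to 2000 UMIs, in cycling T cells (filled) and T cells with none of the 6 genes (open) of naïve, sham and SCI blood, with 95% exact binomial intervals. Filled points lie below open ones for IL7R in each library (10.7, 8.84 and 15.6% against 42.1, 46.5 and 56.7%) and above them for HLA-DRA (36.3, 45.6 and 35.7% against 14.7, 12.5 and 8.03%).

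The same cells were also read as the share of each subset in cycle. Of T cells with FOXP3 after thinning, those cycling were 6.12% (17 of 278; 3.60 to 9.61) for naïve, 3.65% (10 of 274; 1.76 to 6.61) for sham and 3.08% (4 of 130; 0.845 to 7.69) for SCI. T cells without FOXP3 cycled at 3.74, 3.81 and 3.24%, and each of the FOXP3 intervals took in that value. With FOXP3 read at full depth, where members are deeper than other T cells, the shares were 6.85% (4.67 to 9.63), 8.05% (5.86 to 10.7) and 6.84% (4.11 to 10.6) against 3.42, 3.09 and 2.98%, with intervals apart from those of T cells without FOXP3 in each library and with sham as the highest. Neither the order of the libraries nor the gap to T cells without FOXP3 was therefore settled. In SCI blood 1.43% (19 of 1328; 0.864 to 2.23) of CD8 T cells were cycling against 3.93% (3.31 to 4.64) of T cells without CD8, and these intervals were apart. Naïve and sham blood had 3.02% (23 of 762; 1.92 to 4.49) and 2.08% (14 of 672; 1.14 to 3.47) of CD8 T cells in cycle against 4.08 and 4.16%. In sham blood 7.53% (11 of 146; 3.82 to 13.1) of cytotoxic T cells were cycling against 3.65% of the rest. In naïve and SCI blood cytotoxic T cells were at 4.30% (13 of 302; 2.31 to 7.25) and 4.10% (13 of 317; 2.20 to 6.91) against 3.86 and 3.17%. At full depth CD8 T cells were at 3.1, 3.56 and 1.86% against 3.93, 3.81 and 3.93%, apart in SCI blood alone, and cytotoxic T cells at 6.29, 9.85 and 5.50% against 3.47, 3.31 and 2.92%, with intervals apart in each library. Stricter T cells gave 6.32, 3.69 and 3.17% for FOXP3, 2.77, 2.11 and 1.48% for CD8 and 4.21, 7.09 and 4.32% for cytotoxic cells.

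T cells marked by granzyme K had their lowest share in cycle in SCI blood. GZMK, a granzyme of memory CD8 cells, was found after thinning in 14.9% (9.87 to 21.2) of naïve, 9.52% (5.31 to 15.5) of sham and 5.84% (2.71 to 10.8) of SCI members, against 21.8, 18.0 and 32.2% of other T cells. The share of GZMK T cells in cycle was 2.76% (25 of 907), 2.07% (14 of 675) and 0.627% (9 of 1436; 0.287 to 1.19), against 4.19, 4.16 and 4.36% of T cells without it. At full depth the share was 3.27% (2.27 to 4.53), 2.80% (1.76 to 4.21) and 1.63% (1.07 to 2.36) against 3.89, 3.99 and 4.01%, with intervals that overlapped in naïve and sham blood and were apart in SCI blood. B cells had GZMK in 0.820, 0.516 and 0.548%.

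After thinning, the resting and memory markers IL7R, CCR7 and KLRB1 had smaller shares in members, and at full depth this held in each library for IL7R alone. IL7R, the interleukin 7 receptor of resting T cells, had a UMI in 10.7, 8.84 and 15.6% of members and 42.1, 46.5 and 56.7% of other T cells, so 1.05, 0.763 and 0.929% of IL7R T cells were cycling against 5.78, 6.19 and 5.98% of those without it. With IL7R read at full depth, 2.05, 1.65 and 2.05% of IL7R T cells were cycling against 5.42, 6.72 and 5.79%. The lymph node homing receptor CCR7 was found in 25, 19.0 and 14.3% of members against 39.8, 40.1 and 39.7%, and at full depth in 60, 66.0 and 48.1% against 53.3, 63.0 and 58.0%, so it turned in naïve and sham blood. KLRB1, the receptor CD161, was at 19.6, 18.4 and 18.8% against 39.3, 36.5 and 27.8%, and at full depth at 44.7, 38.8 and 45.5% against 47.0, 50.3 and 37.6%, so it turned in SCI blood. B cells had IL7R in 0.574, 1.20 and 0.548% and KLRB1 in 0.574, 0.172 and 0.219%.

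HLA-DRA, ICOS and LAG3 had larger shares in members, and IL2RA had no common direction. HLA-DRA, a chain of MHC class II that human T cells express when activated, was found in 36.3, 45.6 and 35.7% of members against 14.7, 12.5 and 8.03% of other T cells. The B cells of these libraries express it themselves, so they give no background for it. The costimulator ICOS was found in 12.5, 19.7 and 16.9% against 7.47, 10.8 and 6.62%, and the inhibitory receptor LAG3 in 10.7, 8.84 and 6.49% against 4.61, 4.57 and 2.11%. The intervals of members and other T cells overlapped for ICOS in naïve blood (7.91 to 18.5 against 6.65 to 8.35) and for LAG3 in sham blood (4.79 to 14.6 against 3.90 to 5.32). IL2RA was found in 5.36, 12.2 and 3.90% against 7.10, 7.28 and 3.17%.

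T cells with a UMI of the gamma delta constant gene TRDC were few and uneven. TRDC was found after thinning in 2 naïve, 10 sham and 5 SCI members, that is 1.19, 6.80 (3.31 to 12.2) and 3.25%, against 3.69, 2.21 and 1.74% of other T cells. The TRDC T cells in cycle were 1.32% (2 of 152) of the naïve, 10.8% (10 of 93; 5.28 to 18.9) of the sham and 6.02% (5 of 83; 1.98 to 13.5) of the SCI ones. In stricter T cells these shares were 1.40% (2 of 143), 7.32% (6 of 82; 2.73 to 15.2) and 6.58% (5 of 76). Part of the sham TRDC members were thus barcodes that the stricter step removed. B cells had TRDC in 0.328, 0 and 0.439%.

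**Figure D3:**
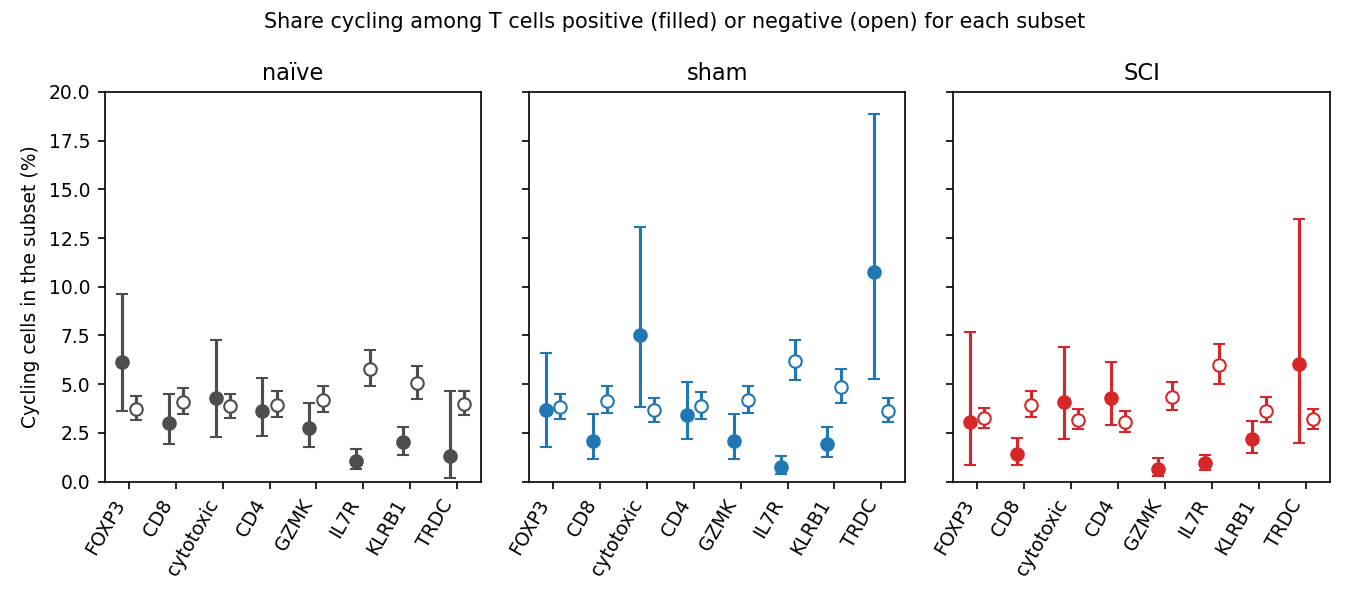
Percent of T cells that are cycling (vertical axes, from 0) among T cells with (filled) and without (open) each marker after thinning to 2000 UMIs, in naïve, sham and SCI blood, with 95% exact binomial intervals. IL7R T cells lie at 1.05, 0.763 and 0.929% and GZMK T cells of SCI blood at 0.627%, and with the markers read at full depth these are 2.05, 1.65, 2.05 and 1.63%.

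The FOXP3 members had more IL2RA, CTLA4 and TNFRSF18 than members with neither FOXP3 nor CD8. Levels were read at full depth in stricter T cells, where 30 naïve, 40 sham and 18 SCI members carried FOXP3. The high-affinity interleukin 2 receptor chain IL2RA stood at 251, 288 and 197 CPM in them. In members with neither FOXP3 nor CD8 it stood at 20.0, 70.8 and 14.9 CPM. The checkpoint receptor CTLA4 was at 273, 154 and 134 CPM in FOXP3 members against 34.2, 27.9 and 16.7 in members with neither. The costimulatory receptor TNFRSF18, known as GITR, was at 379, 231 and 181 CPM against 84.2, 80.1 and 35.1. These orders were alike in all 3 libraries. The Treg markers IKZF2 and RTKN2 are not given for this split. Both were widespread: at full depth IKZF2 had a UMI in 34.4, 45.7 and 31.6% of other T cells and RTKN2 in 38.7, 42.0 and 32.1%.

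The CD8 members without FOXP3, 21, 25 and 28 stricter cells, had more of the effector transcripts than FOXP3 members. Not all cytotoxic members had CD8: over all members at full depth a CD8 gene was found in 23 of 28, 16 of 26 and 17 of 28. The granule protein GNLY, granulysin, stood at 1173, 2424 and 2686 CPM in them against 26.4, 3.20 and 244 in FOXP3 members. NKG7, a granule membrane protein, was at 1421, 460 and 836 CPM against 48.5, 25.7 and 51.1. GZMK was at 1520 CPM in naïve CD8 members and at 375 and 373 in sham and SCI. MKI67 was at 1058, 993 and 979 CPM in FOXP3 members, 992, 1125 and 919 in CD8 members and 1074, 814 and 899 in the remainder. It is a gene of the rule that chose the members, so these levels are a description only.

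The expression of members and other T cells was next set side by side, from summed counts scaled to CPM over the compared genes. Ribosomal protein, mitochondrial and donor-polymorphic genes were left out, 0.5 counts were added before the log2 ratio, genes needed 50 counts, and a gene is counted as higher or lower where it was past 2-fold in the same direction in all 3 libraries. The cells were chosen on this contrast, so it carries no test. Of 10097 genes, 530 were higher (5.25%) and 388 lower (3.84%) in cycling T cells, and 526 (5.31%) and 368 (3.71%) of 9907 in stricter T cells. A lower CPM here is a smaller share of a larger total. Members held 8879, 13413 and 11095 UMIs of compared genes per cell against 2743, 3886 and 3255, so mean UMIs per cell moved all ratios up by 1.69, 1.79 and 1.77 on the log2 scale. On that scale 7340 genes were higher and 6 were lower past 2-fold in all 3 libraries, and of the 388 genes lower in CPM 50 stayed below 0 and 156 lay above 0 in all 3.

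Cell cycle lists were higher almost throughout. All 13 origin licensing genes, which load and open replication origins, were higher, with medians of the log2 ratio of 3.68, 4.32 and 4.24 in naïve, sham and SCI blood. So were all 22 genes of DNA synthesis (2.48, 2.84 and 2.95), 14 of 14 of chromatin and histones (2.52, 2.63 and 2.67) and 21 of 21 of the spindle and kinesins (4.33, 4.29 and 4.69). In the kinetochore and checkpoint list 22 of 23 were higher, the exception being BUB3, and in the list of mitotic kinases and cyclins 18 of 19, the exception being CDC25B. Condensin and cohesin had 10 of 11, the exception being SMC1A. The median over all genes was −0.12, −0.06 and −0.10.

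S phase genes stood far above other T cells. RRM2, a subunit of the enzyme that makes deoxynucleotides, was at 399, 387 and 448 CPM in members against 1.45, 0.961 and 0.770 in other T cells, log2 ratios of 8.06, 8.60 and 9.12. TYMS, thymidylate synthase, was at 474, 538 and 633 CPM against 7.61, 4.73 and 4.62. PCNA, the sliding clamp of the replication fork, was at 361, 466 and 555 CPM against 53.8, 51.7 and 57.6 and so had a resting level too. In each of these genes the 3 libraries of members lay above the 3 of other T cells.

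Chromatin and spindle genes were also well above other T cells. HIST1H4C, a histone H4 gene, was at 2498, 2631 and 3615 CPM in members against 168, 165 and 200. The chromatin protein HMGB1 was at 2980, 3433 and 3505 CPM against 875, 927 and 892. The tubulin TUBA1B was at 3432, 3655 and 4158 CPM against 331, 335 and 402, and its destabiliser STMN1 at 1758, 2035 and 2166 against 112, 104 and 124. The highest HIST1H4C level was that of SCI members.

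Mitotic genes were low outside the members. CENPF, a kinetochore protein, was at 717, 720 and 663 CPM in members against 13.9, 12.3 and 11.3, log2 ratios of 5.68, 5.86 and 5.87. CCNB1, cyclin B1, was at 272, 267 and 271 CPM against 3.53, 5.47 and 5.18. The kinase it activates, CDK1, was at 219, 239 and 285 CPM against 3.62, 3.25 and 2.52. Genes of no list with the same pattern included the spindle gene GTSE1, at 161, 179 and 179 CPM against 0.543, 0.443 and 0.140, and the replication factor PCLAF, at 475, 615 and 640 against 9.78, 8.13 and 8.05.

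Metabolic lists moved less, where over all genes 5.25% were higher and 3.84% lower. Among nucleotide and one-carbon genes 6 of 18 were higher, CTPS1, MTHFD1, MTHFD2, NME1, PAICS and SHMT1, with list medians of 0.85, 0.83 and 0.89. Of 15 glycolysis genes GAPDH, TPI1 and PGAM1 were higher. GAPDH stood at 4911, 5109 and 5726 CPM against 2068, 1904 and 1984. None of 22 oxidative phosphorylation genes was past 2-fold, where few were to be found in a list of this size. Their medians were 0.45, 0.46 and 0.40.

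Brakes on the cycle went both ways. The CDK inhibitor genes CDKN2C and CDKN3 were higher, CDKN3 at 266, 244 and 244 CPM against 3.53, 3.47 and 3.22. TXNIP, which restrains glucose uptake and growth, was lower at 123, 157 and 139 CPM against 828, 991 and 1347, and remained below per cell, at 1.09, 2.10 and 1.55 UMIs per member against 2.27, 3.85 and 4.39. The antiproliferative gene BTG1 was lower in CPM at 407, 383 and 351 against 1083, 1183 and 1196, but per cell its level was not lower, at 3.61, 5.14 and 3.90 against 2.97, 4.60 and 3.90 UMIs. MYC, a driver of growth, was the 1 lower gene among 13 of cycle entry, beside 3.84% of all genes. It was at 39.7, 44.1 and 30.4 CPM against 87.0, 103 and 134, and per cell above other T cells in naïve and sham blood.

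Of 12 genes of the naïve and central memory state 5 were lower in CPM, BACH2, CCR7, IL7R, SATB1 and TCF7, and 4 in stricter T cells. Over all genes 3.84% were lower, and 3.71% in stricter T cells. IL7R was at 86.1, 93.8 and 151 CPM against 669, 800 and 1038, log2 ratios of −2.95, −3.09 and −2.78. It was lower per cell too, at 0.765, 1.26 and 1.68 UMIs per member against 1.84, 3.11 and 3.38. SATB1, a chromatin organiser of T cells, had log2 ratios of −1.95, −2.19 and −2.69 in CPM and −0.26, −0.40 and −0.92 per cell. TCF7, the transcription factor TCF-1, was at 251, 220 and 311 CPM against 545, 558 and 626, while per cell it was higher in members, at 2.23, 2.95 and 3.45 UMIs against 1.49, 2.17 and 2.04.

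Effector genes split in the same way. In the cytotoxic granule list 4 of 13 were lower in CPM, CTSW, GZMA, GZMK and GZMM, beside 3.84% of all genes. Of these, CTSW and GZMA were above other T cells per cell. GZMK was at 228, 130 and 93.1 CPM against 746, 593 and 962, and at 2.02, 1.74 and 1.03 UMIs per member against 2.05, 2.30 and 3.13. GZMM was at 21.9, 20.8 and 26.3 CPM against 181, 137 and 225. CD8B was the 1 lower gene of 9 lineage genes at 34.4, 52.2 and 45.7 CPM against 111, 131 and 224, and per cell it was lower in SCI blood alone. None of 12 T cell receptor and CD3 genes, 20 T cell receptor signalling genes or 11 Treg genes was past 2-fold in all libraries. Over all genes 5.25% were higher and 3.84% lower, so few were to be found in lists of this size. FOXP3 had CPM ratios of −0.16, −0.03 and −0.13.

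Of 12 activation genes 1 was higher, of 15 homing and chemokine receptor genes 1 and of 10 genes of the inhibitory receptor list 2. Over all genes it was 5.25%, and nothing is read from such small counts. The 2 of the inhibitory receptor list are not such receptors themselves. CD38, an activation marker, had log2 ratios of 2.25, 1.90 and 2.47, and the transcription factor gene TOX2 of 1.41, 2.05 and 1.72. CD70, a costimulatory ligand and the higher gene of the activation list, had 1.08, 1.79 and 2.31, and ITGAE, the CD103 integrin of tissue T cells, 1.11, 1.19 and 1.05. HLA-DRA was at 319, 652 and 481 CPM against 231, 216 and 133, and its ratios of 0.47, 1.59 and 1.86 were 1.35, 2.37 and 2.49 in stricter T cells, so it passed 2-fold in all 3 libraries there as a second gene of the activation list. The cytokine LTB was lower in CPM at 714, 587 and 664 against 2655, 2635 and 3092 and below other T cells per cell, at log2 ratios of −0.20, −0.38 and −0.45.

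Interferon-stimulated genes made up a smaller share of members' transcripts. In the type I interferon list 6 of 27 were lower in CPM, beside 3.84% of all genes: IFI44L, IFIT1, IFIT2, MX2, RSAD2 and STAT2. The list medians were −0.57, −0.65 and −0.80. IFI44L had log2 ratios of −2.44, −2.30 and −3.81, and per cell of −0.74, −0.51 and −2.04. The list's direction turned per cell, where its medians were 1.13, 1.13 and 0.97.

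**Figure D4:**
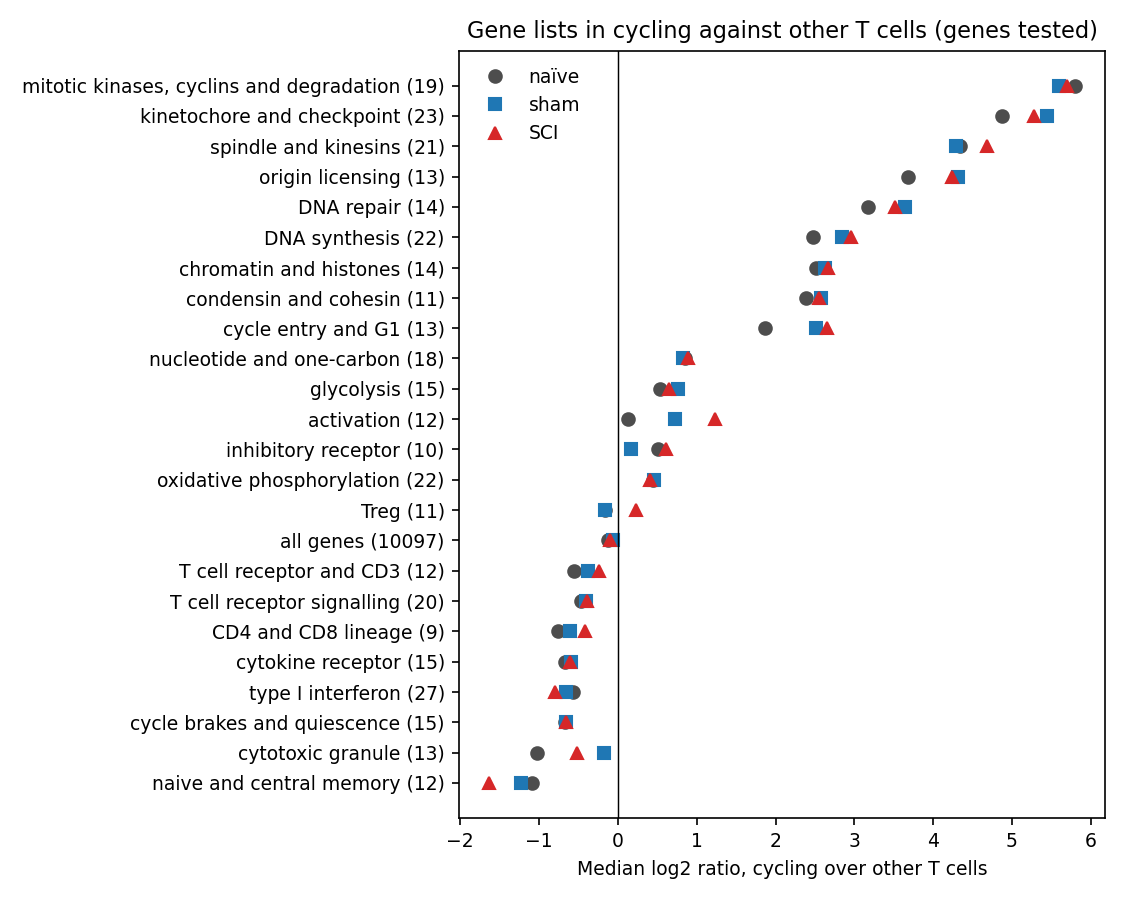
Median log2 ratio of cycling to other T cells in CPM (horizontal axis) for the genes of each list, 1 point for each of naïve, sham and SCI blood, with the median of all genes as the last line. Mitotic genes lie at 5.81, 5.60 and 5.70, oxidative phosphorylation at 0.45, 0.46 and 0.40, and naïve and central memory genes at −1.09, −1.23 and −1.64.

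Between conditions, cycling T cells of SCI blood had lower median levels of the type I interferon and Treg lists than those of sham blood. The medians of both lists were below 0 in the other T cells of these libraries too. Of 7623 genes with 50 counts over both libraries, 26 were past 2-fold higher (0.341%) and 127 lower (1.67%) in SCI than in sham members. In stricter T cells it was 29 (0.39%) and 63 (0.848%) of 7433, and in other T cells 144 (1.25%) and 145 (1.26%) of 11526. Against naïve blood, SCI members had 54 genes higher (0.746%) and 111 lower (1.53%) of 7234, and 43 (0.633%) and 46 (0.677%) of 6798 in stricter T cells. Sham members had 89 higher (1.18%) and 61 lower (0.811%) of 7517 against naïve, and 37 (0.536%) and 20 (0.29%) of 6903 in stricter T cells. The 3 comparisons share libraries and are not independent of each other. With mean UMIs per cell the median gene shifted by −0.28 for SCI over sham, 0.36 for SCI over naïve and 0.65 for sham over naïve.

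In the type I interferon list 11 of 26 genes were past 2-fold lower in SCI than in sham members, beside 1.67% of all genes. Of the 26, 1 was above 0, and the median was −0.88, against −0.66 in other T cells. MX1, an antiviral GTPase, was at 535, 615 and 225 CPM in naïve, sham and SCI members. It was found in 90, 98.6 and 79.2% of members, and its SCI to sham log2 ratio was −1.45 (−1.62 to −1.28), against −1.17 in other T cells. ISG15, a ubiquitin-like protein, was at 1224, 1077 and 517 CPM, a ratio of −1.06 (−1.17 to −0.95), against −0.99 in other T cells. IFI44L was at 47.7, 85.2 and 11.7 CPM, from 72, 168 and 20 UMIs, a ratio of −2.83 (−3.61 to −2.19), against −1.32 in other T cells. For these 3 genes the SCI library was the low one, and naïve and sham differed in order from gene to gene.

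The stricter T cells had 10 of 25 interferon genes past 2-fold lower, beside 0.848% of all genes. Over all members IFIT1 was at −1.63, RSAD2 at −1.74, IFI44 at −2.38 and IFI6 at −1.39. IFITM3, at −3.24 over all members, had under 50 counts in stricter T cells and was not compared there. Against naïve members, 9 of 25 were lower in SCI, beside 1.53% of all genes, with a median of −0.61. Among them were MX1 at −1.25, ISG15 at −1.24 and IFI44L at −2.0. In stricter T cells 8 were lower, beside 0.677% of all genes, with a median of −0.76. Between sham and naïve members none was past 2-fold lower, beside 0.811% of all genes. The median was 0.18, and 0.00 in stricter T cells. IFI27, an interferon-inducible gene outside the list and chosen after its values were seen, was higher in SCI than in naïve members. Its log2 ratio was 1.18 (0.62 to 1.79), or 3.14 in stricter T cells from 93 UMIs against 6, and 1.85 in other T cells.

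In the Treg list 5 of 10 genes were past 2-fold lower in SCI than in sham members, beside 1.67% of all genes. None of the 10 was above 0, and the median was −1.07, against −1.02 in other T cells. FOXP3 was at 41.1, 55.3 and 19.9 CPM in naïve, sham and SCI members, from 62, 109 and 34 UMIs, a ratio of −1.46 (−2.07 to −0.91), against −1.36 in other T cells. IL2RA was at 53.0, 151 and 40.4 CPM, a ratio of −1.90 (−2.30 to −1.52), against −0.95 in other T cells. TNFRSF18 was at −1.30, the ectonucleotidase gene ENTPD1 at −1.29 and the costimulatory receptor gene TNFRSF4 at −1.17. The FOXP3 share of members differed as well, and with FOXP3, CD8 and remaining members given equal weights in both libraries 1 of the 10 genes was past 2-fold lower, IL2RA at −1.29. From the sums alone, fewer cells of a kind and less RNA per cell cannot be told apart, and which of them applied was not tested.

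Against naïve members 1 of 10 Treg genes was past 2-fold lower in SCI, FOXP3 at −1.04 (−1.69 to −0.42), beside 1.53% of all genes. In stricter T cells 3 were lower, beside 0.677% of all genes, and FOXP3 was at −1.56. Sham members had 1 gene of the list past 2-fold higher than naïve, beside 1.18% of all genes. It was IL2RA at 1.51 (1.15 to 1.89), or 1.11 in stricter T cells, while FOXP3 was at 0.42 (−0.03 to 0.90). In other T cells IL2RA was at −0.13 for the same libraries. IL2RA was carried by 37 naïve, 44 sham and 19 SCI members, of which the top cell held 12.5, 16.1 and 20.3% of its UMIs.

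No gene of the division machinery was past 2-fold between SCI and sham members, where over all genes 0.341% were higher and 1.67% lower, so that few were to be found in lists of this size. None of the genes of origin licensing (16), DNA synthesis (23), chromatin and histones (16), spindle and kinesins (22), kinetochore and checkpoint (24), mitotic kinases and cyclins (20), condensin and cohesin (12), DNA repair (16) or cycle entry (14) was counted. Within that limit 15 of 16 licensing genes and 21 of 23 DNA synthesis genes lay above 0, with medians of 0.28 and 0.19, while spindle and mitotic genes had medians of 0.02 and 0.02. MCM5, a subunit of the replicative helicase, had a ratio of 0.25 (0.02 to 0.48) to sham and 0.70 (0.43 to 0.98) to naïve. PCNA had 0.25 and 0.62 and CCNB1 0.02 and −0.00. Against naïve members the licensing and DNA synthesis lists had medians of 0.40 and 0.40, with UHRF1 at 1.20, POLD1 at 1.04 and GINS1 at −1.04 past 2-fold, and in stricter T cells the DNA synthesis median was 0.24. Median S phase UMIs per thinned member were 6, 8 and 11, from the same genes and cells, so their order is no further support. Their quartiles overlapped, at 3.75 to 12, 3 to 14 and 3.25 to 16.

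Among genes with 50 CPM in one library, the highest ratios to sham were of MYOM2, KLRD1 and HOPX, which were high in SCI members and in other T cells of SCI blood. The 5 highest SCI to sham ratios were MYOM2 at 3.40, KLRD1 at 2.35, HOPX at 2.13, FGFR1 at 1.53 and FAM118A at 1.40, and all 5 were also the highest in stricter T cells. MYOM2, a muscle protein gene also found in cytotoxic lymphocytes, had 14, 16 and 150 UMIs in naïve, sham and SCI members and was found in 14, 13 and 53 of them, with a ratio of 2.64 in other T cells. HOPX, a homeodomain protein of effector memory cells, had 49, 48 and 184 UMIs in 26, 21 and 52 members and a ratio of 1.64 in other T cells. KLRD1, which codes for the receptor CD94, had 29, 20 and 90 UMIs in 8, 12 and 26 members and a ratio of 1.23 in other T cells. SCI was the high library for each of these.

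GNLY and GZMH, and the gamma delta gene TRDC, had another order in members, with naïve low. In other T cells their sham to naïve ratios were −0.45, 0.20 and −0.19, and their SCI to naïve ratios 0.30, 1.11 and −1.07. The cytotoxic granule list as a whole did not share the order of the members. In sham over naïve members 5 of 13 genes lay above 0, with a median of −0.06, or −0.33 in stricter T cells. Past 2-fold higher were 3, beside 1.18% of all genes. GNLY had 297 UMIs in 19 naïve, 1118 in 19 sham and 1011 in 22 SCI members, and the top cell held 28.3, 23.1 and 19.4% of them. GZMH had 27, 128 and 113 UMIs in 5, 10 and 11 members, with ratios of 0.03 for SCI to sham and 1.87 for SCI to naïve. TRDC had 28, 191 and 106 UMIs in 3, 13 and 8 members, with ratios of −0.64 and 1.72. GZMK went the other way with 344, 256 and 159 UMIs, at −0.48 for SCI to sham and −1.29 for SCI to naïve, where other T cells had 0.70 and 0.37. CD8A was at 0.03 (−0.31 to 0.38) between SCI and sham members and at 0.69 in other T cells. The top cell held 48.1, 32.0 and 17.7% of the GZMH UMIs and 50, 28.3 and 25.5% of those of TRDC.

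The lowest ratios over all members were genes of other lineages and are given as counts. In SCI against sham they were led by the monocyte and basophil genes LYZ, with 140, 1281 and 0 UMIs in naïve, sham and SCI members, CLC with 22, 567 and 0, and S100A8 with 612, 1485 and 1. Against naïve blood they were led by the immunoglobulin and plasma cell genes IGLC2, with 16527, 6 and 5 UMIs, IGLC3 with 9692, 1 and 3, and JCHAIN with 3599, 1 and 5. Among stricter members IFI44L at −2.64, IFI44 at −2.23 and IL2RA at −1.97 were among the lowest SCI to sham ratios. IGLC2 remained at −4.84 for SCI to naïve, and immunoglobulin RNA was also found outside the lineage in naïve blood, where IGHM had a UMI in 35.3% of other T cells against 3.16% in sham blood.

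**Figure D5:**
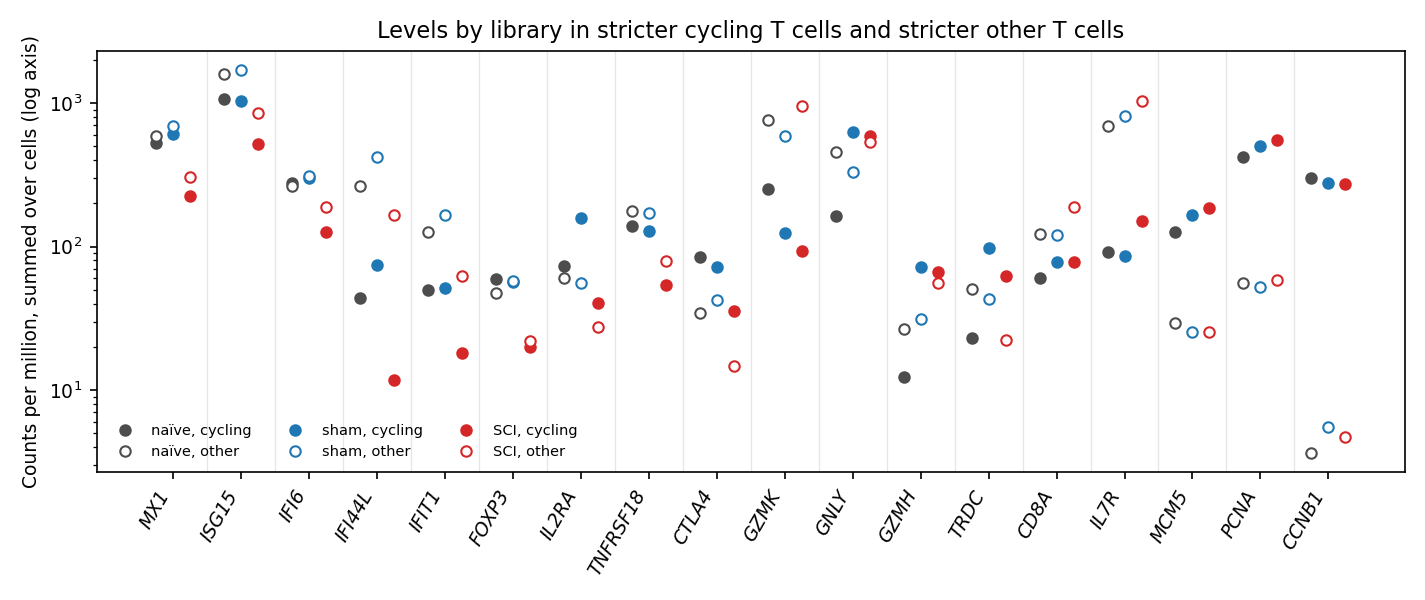
Summed level in CPM (log axis) of 18 genes in stricter cycling T cells (filled) and stricter other T cells (open) of naïve, sham and SCI blood, 1 library per point. MX1 and ISG15 are lowest in SCI blood in both classes of cell, and CCNB1 lies alike in the 3 libraries of cycling T cells.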

How the data were processed

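Per the file headers and the labels, the authors made the deposited gene by barcode UMI counts with Cell Ranger 3.1.0 against a combined human and mouse reference (hg38 and mm10), 1 matrix per library, with no normalisation. The authors' own filters and clusters were not used. Members and gene lists were chosen with earlier results of these data known. Cells, T cells and cycling T cells were called by the rule in the text. For subset shares each cell was thinned without replacement to 2000 human UMIs (seed 1; alternative 1000), with exact Clopper-Pearson intervals. Sums of counts per library were compared as CPM with 0.5 added counts and exact conditional binomial intervals. Differences past 2-fold were counted, with no p-value, because each condition was 1 library. Variable gene segments and donor-polymorphic genes were left out beside ribosomal protein and mitochondrial genes. No sequence is shown, since none was used here.

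The genes named were the 6 rule genes, per list the 2 to 4 with the most counts in members or the largest ratio of 1 direction in all libraries, and per comparison the 5 highest and 5 lowest ratios among genes with 50 CPM in one library. Genes of other lineages were given as counts. Members of the lists for cytokines, NK receptors, apoptosis, homing, cytokine receptors, inhibitory receptors, gamma delta cells, erythroid cells and platelets are described in the closing section where they were not in the text. Marked doublets (Scrublet in scanpy 1.11.5) and outliers at 3 median absolute deviations were removed only as an alternative. Sums and intervals were computed with scipy 1.17.1 and numpy 2.4.6 and tables with pandas 2.3.3 under Python 3.11.15, figures with matplotlib 3.10.9, and TMM factors, an alternative scaling, with edgeR 4.0.16 in R 4.3.3. The script was checked on simulated counts with known changes. Some results for single genes are not reported here.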

Additional observations from a re-analysis of the deposited data

Results flagged for a closer look

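Cycling human cells were also present outside the T cell gate, in cells that no comparison above used. Of human blood cells that were not T cells, 5.68% (117 of 2059) in naïve, 1.84% (18 of 977) for sham and 1.15% (16 of 1397) for SCI had at least 3 of the 6 genes. The 0.146, 0.307 and 0.215% that a count of 0 allows were the marks for listing these shares and are not noise levels. In naïve blood 105 of the 117 had at least 5 of 10 plasma cell markers, 98 had no CD3 UMI and 43 had MS4A1. In sham and SCI blood 15 of 18 and 15 of 16 had MS4A1.

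In the injured cord 5.06% of T cells (4 of 79; 1.40 to 12.5) met the rule, and 3 of these 4 remained among stricter T cells. The 3.80% that a count of 0 allows was the mark for listing the share here. It is not a noise level and lies within the interval. The interval took in the shares of all 3 blood libraries.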

How the results depend on the processing

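No paired analysis was possible because each condition was 1 library, and for the same reason no replicate could be left out. The settings for stricter T cells, for the average over all draws, and for UMIs per cell between cycling and other T cells were added after seeing the data. Between conditions no named value past 2-fold changed sign. Of the main values, 119 stayed the same and 40 moved under planned settings, and 34 and 6 under added ones. The share of T cells in cycle (naïve, sham, SCI) was 4.92, 4.82 and 4.39% with at least 2 of 6 genes, 2.96, 2.91 and 2.61% with at least 4, and 1.92, 1.60 and 1.51% thinned to 2000 UMIs. At full depth FOXP3 was found in 17.6, 28.6 and 11.7% of members, CD8 in 23.1% of sham and 20.8% of SCI members, and 2 cytotoxic genes in 16.5, 17.7 and 18.2%. Thinning to 1000 UMIs gave 4.17% for FOXP3 in naïve members and 5.95% (naïve) and 7.14% (SCI) for CD8. With subsets read at full depth, 8.05% of FOXP3 and 3.56% of CD8 T cells of sham blood were cycling. Cycling against other T cells, mean UMIs per cell gave 7340 genes higher and 6 lower, and 156 of the 388 genes lower in CPM turned to above 0 in all 3 libraries. Counts of genes past 2-fold (higher, lower) moved most with UMIs per cell and the count minimum. For SCI over sham they were 14 and 253 with UMIs per cell, 112 and 319 with at least 20 counts and 1 and 20 with at least 200, and stricter T cells had 63 lower. For SCI over naïve they were 212 and 67, 175 and 268, and 5 and 33, with 46 lower in stricter T cells. For sham over naïve they were 863 and 28, 256 and 163, and 14 and 20, with 37 and 20 in stricter T cells. A lower minimum adds sparse genes by construction. The cause of the other shifts was not tested. Of the named genes and list counts, 58 of 78 stayed the same with UMIs per cell, 62 with the mean of per-cell CPM and 66 with equal subset weights. Depth limits the subset shares most: a member thinned to 2000 UMIs often holds no UMI of a sparse gene such as FOXP3.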

Other observations

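Several gene lists of the cycling T cells were not described above. Over all genes 5.25% were higher and 3.84% lower in all 3 libraries, and nothing is read from such small counts as those below. Of 12 apoptosis genes 3 were lower in CPM than in other T cells of all 3 libraries, BBC3, BCL2 and BIRC3, and 4 in stricter T cells. BCL2, which protects resting lymphocytes from death, had log2 ratios of −1.09, −1.43 and −2.63 in naïve, sham and SCI blood, and 0.60, 0.36 and −0.86 as UMIs per cell. Of 15 genes of the cytokine receptor list IL10RA and SOCS3, the latter not a receptor, were lower in CPM. So were KLRB1 of 7 NK receptor genes and LTB of 5 cytokine genes. Of 15 homing and chemokine receptor genes 1 was higher, ITGAE, and the list medians were −0.51, −0.51 and −0.58 in CPM. Of 10 genes of the inhibitory receptor list CD38 and TOX2 were higher, which are not inhibitory receptors themselves. The gamma delta and innate-like list had 5 genes with enough counts and KLRB1 as the 1 lower gene, and the erythroid and platelet list had none with enough counts.

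JUN and FOS, a pair of early response genes chosen after their values were seen, are given as values. JUN, a subunit of the AP-1 factor, was at 130, 138 and 100 CPM in naïve, sham and SCI members against 114, 196 and 245 in other T cells. FOS, its partner, was at 40.4, 63.9 and 28.1 CPM against 37.0, 66.5 and 135. The ratios to other T cells were −2.26 for FOS and −1.29 for JUN in SCI blood, and in stricter T cells −2.19 and −1.30. In SCI blood other T cells were the high class for both genes, and in naïve blood the levels of members and other T cells were close.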
